A study of Homo sapiens with 12 samples.

Results

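Cholesterol and fatty acid synthesis was followed through 32 genes, taken by symbol from a list of enzymes, their regulators and 1 sterol carrier, out of 60675 gene identifiers in the deposited tables. The list held 18 sterol enzymes, 8 fatty acid enzymes and 6 genes of regulation and transport. The MIR211 line, labelled A375/211, is a derivative of A375, a human melanoma cell line, with forced expression of MIR211, which encodes miR-211. It was set against A375 itself. Both lines grew in Tu medium with 2% fetal bovine serum, and the labels name no agent other than the BrU described next. In BRIC-seq, cells took up 5-bromouridine (BrU) for 24 h, and the BrU-containing RNA was pulled down 0, 1, 3 and 6 h after labelling, with 1 library per line and time. Total RNA was sequenced from cells grown without BrU, with 2 libraries per line, a and b. The sources used here give neither the vector and promoter of the MIR211 line nor whether it is 1 clone, so an effect of the microRNA and any other difference between the lines cannot be told apart.

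Sterols and fatty acids are both built from cytosolic acetyl-CoA. The mevalonate pathway condenses it to isoprenoid units, joins these to squalene, closes squalene to lanosterol and trims lanosterol to cholesterol in the endoplasmic reticulum. Fatty acid synthesis carboxylates acetyl-CoA, extends the chain to palmitate and then elongates and desaturates it. Transcription of most of these enzymes is driven by SREBP proteins, which SCAP escorts from the endoplasmic reticulum when membrane sterols are low and which INSIG proteins retain when sterols are high. SREBP-bound promoters commonly carry a sterol regulatory element beside a CCAAT box, the site of the factor NF-Y.

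Promoter sequence was read from RefSeq (GRCh38.p14), as 250 bases before and 50 after each start, for 28 of the 32 genes. FDFT1, ACAT2, SQLE and FASN were not matched. Both strands were searched for CCAAT, and for CACNCCAC, a core of the sterol regulatory element in which N is any base. Matches on opposite strands can overlap, as in CCAATTGG, where CCAAT lies on both. CCAAT was present in 21 of the 28 genes, made up of 13 of 15 sterol enzymes, 5 of 7 fatty acid enzymes and 3 of 6 regulators. It was present in 39.7% of the 27305 genes in the table and in 34.6% of its 35116 promoters. CACNCCAC was present in 6 of the 28 (ACACA, IDI1, INSIG1, SC5D, SCD and SREBF2), against 7.05% of all genes and 5.87% of all promoters. In the scaled labelled RNA, HMGCS1 and IDI1 were lowest at 6 h and SCD was highest there. The slope of IDI1 did not pass the test, and the direction of SCD depends on the scaling, as given below. The promoters of these 3 genes are shown for their different courses. They are those of HMGCS1 (chr5:43313363-43313662, minus strand), which condenses acetoacetyl-CoA to HMG-CoA, IDI1 (chr10:1048837-1049136, minus strand), the isopentenyl diphosphate isomerase, and SCD (chr10:100346983-100347282, plus strand), the stearoyl-CoA desaturase. Capitals mark matches to either motif on either strand.
HMGCS1 promoter: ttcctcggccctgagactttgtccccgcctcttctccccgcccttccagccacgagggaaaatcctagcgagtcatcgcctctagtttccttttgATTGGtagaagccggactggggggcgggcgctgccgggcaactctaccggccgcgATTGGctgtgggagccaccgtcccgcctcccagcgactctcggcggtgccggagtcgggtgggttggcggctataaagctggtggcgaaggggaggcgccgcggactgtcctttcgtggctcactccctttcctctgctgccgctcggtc
IDI1 promoter: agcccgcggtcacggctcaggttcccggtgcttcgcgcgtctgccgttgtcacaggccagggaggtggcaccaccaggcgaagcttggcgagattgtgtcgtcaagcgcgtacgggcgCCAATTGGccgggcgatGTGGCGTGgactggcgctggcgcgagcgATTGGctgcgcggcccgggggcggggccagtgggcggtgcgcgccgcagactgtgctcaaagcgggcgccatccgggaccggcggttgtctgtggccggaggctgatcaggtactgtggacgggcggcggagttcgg
SCD promoter: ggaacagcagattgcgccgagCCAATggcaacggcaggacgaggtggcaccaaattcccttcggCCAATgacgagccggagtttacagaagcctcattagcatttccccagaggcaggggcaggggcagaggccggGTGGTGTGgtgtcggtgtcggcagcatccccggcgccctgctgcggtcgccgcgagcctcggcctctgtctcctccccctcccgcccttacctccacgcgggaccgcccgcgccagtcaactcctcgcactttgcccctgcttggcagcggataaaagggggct
The HMGCS1 window held 2 CCAAT matches and no CACNCCAC. The IDI1 window held 3 CCAAT matches, a pair of which overlap, and 1 CACNCCAC. The SCD window held 2 and 1. A match is a string of letters and not a measured site, and another HMGCS1 window and another IDI1 window in the table held neither motif.

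The RNA-seq libraries held 34130525 and 30528273 counts in the MIR211 line and 20847481 and 28372099 counts in A375. The BRIC-seq libraries held 2783520 to 6663297 counts in the MIR211 line and 2671651 to 7279038 counts in A375, lowest at 0 h in both lines. MIR211 had 36 and 18 counts in total RNA of the MIR211 line, against 0 and 0 in A375, and 9, 11, 2 and 3 counts at 0, 1, 3 and 6 h of labelled RNA, against 0 at all 4 times. Mitochondrial MT-RNR2 made up 7.38, 10.4, 16.7 and 26.4% of labelled counts at 0, 1, 3 and 6 h in the MIR211 line, and 7.71, 9.01, 15.1 and 26.9% in A375, so that it took a growing share of each later library. The 8 melanocyte lineage markers summed to 384 to 425 CPM (counts scaled by library size) in total RNA of the MIR211 line, against 485 to 492 CPM in A375, with the pigment genes TYR and MLANA near 0 in both lines. Within that sum MITF had 38.8 and 49 CPM in the MIR211 line, against 253 and 244 CPM in A375, while SOX10 had 206 and 232 CPM against 163 and 135 CPM, and S100B 94.6 and 100 CPM against 32.6 and 29 CPM. The chase comparisons share the same 8 libraries. The labels do not say that libraries a and b came from separate cultures, so the p-values rest on a spread between libraries that may be technical.

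In total RNA, SCD had the highest level of the 32 transcripts per length in both lines. INSIG2, an endoplasmic reticulum retention protein, was lowest by the mean over the 4 libraries, and in A375 FADS2 lay beside it. In TPM (counts per kilobase of the gene's merged exons, scaled to an equal total per library), SCD averaged 216 ± 56.6 TPM in the MIR211 line and 281 ± 10.1 TPM in A375 (SD, n = 2 each). ACLY, which makes cytosolic acetyl-CoA from citrate, averaged 167 ± 41.3 TPM in the MIR211 line and 186 ± 39.2 TPM in A375. INSIG1 followed with 127 ± 55.1 TPM in the MIR211 line and 137 ± 36.7 TPM in A375. The first sterol enzymes in the order were the lanosterol demethylase CYP51A1 (mean over the 4 libraries 86.4 TPM), the farnesyl diphosphate synthase FDPS (79.5 TPM) and the acetoacetyl-CoA thiolase ACAT2 (77.6 TPM), with FASN, the fatty acid synthase, between the first and the second at 84.5 TPM. The least abundant enzymes were FADS2, the delta-6 desaturase, at 1.72 TPM, the sterol reductase TM7SF2 at 3.87 TPM and the lathosterol oxidase SC5D at 4.99 TPM. INSIG2 averaged 1.56 TPM over the 4 libraries, and in A375 the levels were 1.56 ± 0.108 TPM for INSIG2 and 1.53 ± 0.199 TPM for FADS2 (SD, n = 2), which do not differ beyond their spread. FADS1, the delta-5 desaturase, averaged 46.2 TPM, and its locus overlaps that of FADS2 on the opposite strand.

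No difference between the MIR211 line and A375 passed the test in total RNA for any of the 32 genes. With edgeR's quasi-likelihood test, 0 of 32 passed an adjusted p of 0.05, 0 had an unadjusted p under 0.05 and 0 passed with DESeq2, where 0.379% of the 19258 genes tested passed with edgeR. The log2 differences, MIR211 line minus A375, ran between -0.55 and 0.64, with 11 genes above 0 and 21 below. Their medians were -0.040 over the 18 sterol enzymes, -0.031 over the 8 fatty acid enzymes and -0.17 over the 6 regulators, beside -0.0035 over all genes tested.

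The gene nearest to the threshold was EBP, the sterol isomerase that shifts the ring double bond, which had 55.3 and 76.8 CPM in libraries a and b of the MIR211 line, against 37 and 47.7 CPM in those of A375 (log2 difference 0.64, SE 0.25, adjusted p = 0.459). Both EBP libraries of the MIR211 line lay above both of A375. PMVK, the phosphomevalonate kinase, had 14.4 and 13.3 CPM in the MIR211 line, against 16.7 and 19.9 CPM in A375, and SC5D had 34.5 and 26.9 CPM in the MIR211 line, against 43.3 and 37.2 CPM in A375. Both genes lay lower in both MIR211 line libraries (log2 difference -0.40 for PMVK and -0.39 for SC5D, adjusted p = 0.565 and 0.606). STARD4, a carrier that moves sterol between membranes, had 115 and 95.7 CPM in the MIR211 line, against 183 and 116 CPM in A375 (log2 difference -0.51, SE 0.28, adjusted p = 0.615). The SREBP genes were also lower in both MIR211 line libraries than in either of A375. SREBF1 had 78.4 and 81.9 CPM in the MIR211 line, against 92.5 and 102 CPM in A375, and SREBF2 had 128 and 112 CPM in the MIR211 line, against 148 and 139 CPM in A375. Their adjusted p were 0.641 for SREBF1 and 0.698 for SREBF2. FDFT1, the squalene synthase, had 183 and 121 CPM in the MIR211 line, against 195 and 197 CPM in A375, and DHCR7, which makes cholesterol from 7-dehydrocholesterol, had 132 and 60 CPM in the MIR211 line, against 142 and 139 CPM in A375. For DHCR7, library a of the MIR211 line lay beside the A375 libraries and library b far below them, with an SE of 0.39 on a log2 difference of -0.55. No fatty acid enzyme had both MIR211 line libraries on the same side of both A375 libraries, and 1 sterol enzyme lay above, 4 sterol enzymes below and 3 regulators below. Over all genes tested, 20.7% lay above and 20.3% below in this way, while 0.379% passed.

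Libraries a and b of the MIR211 line differed from each other in sterol enzymes. Library a was above library b for 17 of 18 sterol enzymes, by a median log2 of 0.92, and for 13 of 18 (72.2%) by more than 0.5, against 9.19% of the 19258 genes. In A375, library a was above b for 8 of 18, by a median log2 of -0.0087, and 2 of 18 exceeded 0.5, against 15.2% of all genes. HMGCS1 showed the widest gap, with 504 and 170 CPM in the MIR211 line, against 290 and 278 CPM in A375. The lanosterol synthase LSS had 111 and 41.6 CPM in the MIR211 line, against 99.2 and 81.4 CPM in A375, and MVD, the mevalonate diphosphate decarboxylase, had 78.4 and 31 CPM in the MIR211 line, against 56 and 56.5 CPM in A375. In all 3, the A375 libraries lay between those of the MIR211 line. ACAT2 had 202 and 86.6 CPM in the MIR211 line, against 159 and 135 CPM in A375. CYP51A1 had 311 and 149 CPM in the MIR211 line, against 341 and 226 CPM in A375. NSDHL, the C4 decarboxylase of the demethylation complex, had 69.7 and 32.8 CPM in the MIR211 line, against 48.3 and 48.5 CPM in A375. Library a was again the higher one of the MIR211 line in these 3 genes. SQLE, the squalene epoxidase, had 243 and 128 CPM in the MIR211 line, against 240 and 245 CPM in A375. IDI1 had 194 and 103 CPM in the MIR211 line, against 131 and 171 CPM in A375. FDPS had 288 and 152 CPM in the MIR211 line, against 187 and 210 CPM in A375. Here too the gap between a and b of the MIR211 line was larger than that between the A375 libraries. HSD17B7, a ketosteroid reductase of the same complex, had 37.3 and 18.6 CPM in the MIR211 line, against 27.2 and 30.3 CPM in A375. MSMO1, the C4 methyl oxidase, had 175 and 105 CPM in the MIR211 line, against 162 and 131 CPM in A375. TM7SF2 had 13.3 and 9.54 CPM in the MIR211 line, against 9.63 and 5.05 CPM in A375. EBP was the only sterol enzyme that was lower in library a of the MIR211 line. MVK, the mevalonate kinase, had 51.9 and 39.8 CPM in the MIR211 line, against 35.6 and 49.7 CPM in A375.

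**Figure D1:**
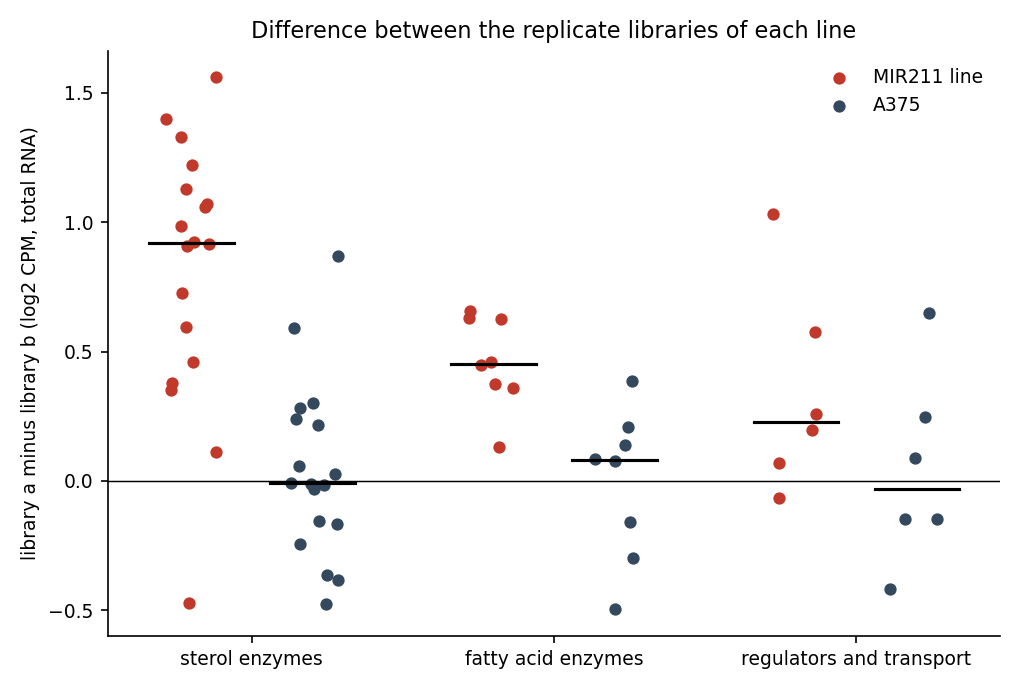
Difference between the replicate libraries of each line in total RNA. The y axis gives library a minus library b in log2 CPM, each point is a gene, bars are medians, and the MIR211 line stands left of A375 in each group. The 18 sterol enzymes of the MIR211 line have a median of 0.92 and those of A375 a median of -0.0087.

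Fatty acid enzymes shared the direction of this gap with smaller values. All 8 were higher in library a of the MIR211 line, by a median log2 of 0.45, and 3 of them by more than 0.5. SCD had 987 and 625 CPM in the MIR211 line, against 1120 and 965 CPM in A375. ACLY had 750 and 485 CPM in the MIR211 line, against 609 and 748 CPM in A375. FADS1 had 444 and 287 CPM in the MIR211 line, against 313 and 295 CPM in A375. For SCD, both A375 libraries lay between or above those of the MIR211 line, whereas for FADS1 they lay beside library b. FASN had 579 and 421 CPM in the MIR211 line, against 505 and 712 CPM in A375. ACACA, the acetyl-CoA carboxylase, had 253 and 195 CPM in the MIR211 line, against 248 and 235 CPM in A375. The elongase ELOVL6 had 83.6 and 61.2 CPM in the MIR211 line, against 57.8 and 64.6 CPM in A375. The groups of libraries overlapped in each of these. ELOVL5, the elongase of polyunsaturated chains, had 150 and 137 CPM in the MIR211 line, against 146 and 132 CPM in A375, and FADS2 had 16.1 and 12.4 CPM in the MIR211 line, against 13 and 9.85 CPM in A375. Among the regulators, INSIG1 had 445 and 217 CPM in the MIR211 line, against 298 and 399 CPM in A375, SCAP had 82.4 and 78.6 CPM in the MIR211 line, against 81.2 and 90.1 CPM in A375 and INSIG2 had 5.36 and 3.43 CPM in the MIR211 line, against 4.77 and 3.93 CPM in A375. Of these, INSIG1 had the wide gap seen in the sterol enzymes, and SCAP did not. Summed over the 18 sterol enzymes, the libraries gave 2698 and 1366 CPM in the MIR211 line, against 2219 and 2110 CPM in A375. Summed over the 8 fatty acid enzymes, they gave 3262 and 2224 CPM in the MIR211 line, against 3008 and 3163 CPM in A375. The sterol median of the line difference moved with the library used: it was -0.595 without library a of the MIR211 line and 0.329 without library b.

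In labelled RNA, 7 of 8 fatty acid enzymes rose over the chase relative to the scaled total, and the sterol enzymes split. The chase slope is the change per hour in log2 CPM, fitted over 0, 1, 3 and 6 h with the lines sharing 1 slope, so it measures a transcript against the scaled total of labelled RNA and not its absolute decay. Of the 32, 30 genes had enough counts to be tested, and MVK and MVD did not. A positive slope passed in 18 genes and a negative one in 4, beside 29.9% and 34.4% of the 13703 genes tested. By group, 7 of 8 fatty acid enzymes were positive and 0 negative (median 0.31), 9 of 16 sterol enzymes positive and 3 negative (median 0.16), and 2 of 6 regulators positive and 1 negative (median -0.063), with a median of -0.038 over all genes. Signs depend on the scaling: with total counts as library sizes, 5 fatty acid enzymes were positive and 1 negative, and 4 sterol enzymes positive and 6 negative. With 9 glycolytic mRNAs held constant, 0 of the 30 were positive, while 6 fatty acid enzymes, 13 sterol enzymes and 6 regulators were negative. The all-gene median was -0.20 and -0.52 under these scalings, and relative to it the fatty acid median stood 0.35 higher and the sterol median 0.19 higher under every scaling used. A change of scaling shifts all genes nearly alike, so these distances could hardly change and are no check on the slopes. Rises and falls are given relative to the scaled total.

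Among the fatty acid enzymes the steepest slopes belonged to FADS2 and FASN. FASN had 23.7, 43.4, 71.9 and 186 CPM at 0, 1, 3 and 6 h in the MIR211 line, against 38, 48.2, 95.1 and 243 CPM in A375 (slope 0.46 log2 per hour, SE 0.028, adjusted p = 7.45e-06). Its level was higher at each later time in both lines. FADS2 had 1.36, 1.19, 4.14 and 8.09 CPM in the MIR211 line, against 0.589, 1.69, 2.21 and 15.3 CPM in A375 (slope 0.60, SE 0.079, adjusted p = 0.000303). These are 5 to 33 counts in the MIR211 line and 2 to 76 counts in A375, so its early values are imprecise. FADS1 had 637, 936, 1520 and 2910 CPM in the MIR211 line, against 533, 696, 1070 and 2200 CPM in A375 (slope 0.35, SE 0.019, adjusted p = 4.37e-06). SCD had 681, 1020, 1590 and 2260 CPM in the MIR211 line, against 802, 1040, 1780 and 2790 CPM in A375 (slope 0.29, SE 0.026). ACLY had 136, 173, 274 and 538 CPM in the MIR211 line, against 169, 229, 326 and 738 CPM in A375 (slope 0.34, SE 0.020). All 3 were higher at each later time in both lines. ACACA had 279, 265, 344 and 456 CPM in the MIR211 line, against 420, 449, 460 and 651 CPM in A375 (slope 0.12, SE 0.022, adjusted p = 0.00186). ELOVL5 had 103, 139, 179 and 214 CPM in the MIR211 line, against 72.1, 99.1, 124 and 129 CPM in A375 (slope 0.14, SE 0.033, adjusted p = 0.00476). Both slopes passed and were smaller than that of FADS1. ELOVL6, which extends palmitate to stearate, was the exception among the 8, with 56.6, 73.6, 76.5 and 61.7 CPM in the MIR211 line, against 60.4, 70, 66.4 and 33 CPM in A375 (slope -0.073, SE 0.052, adjusted p = 0.245).

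**Figure D2:**
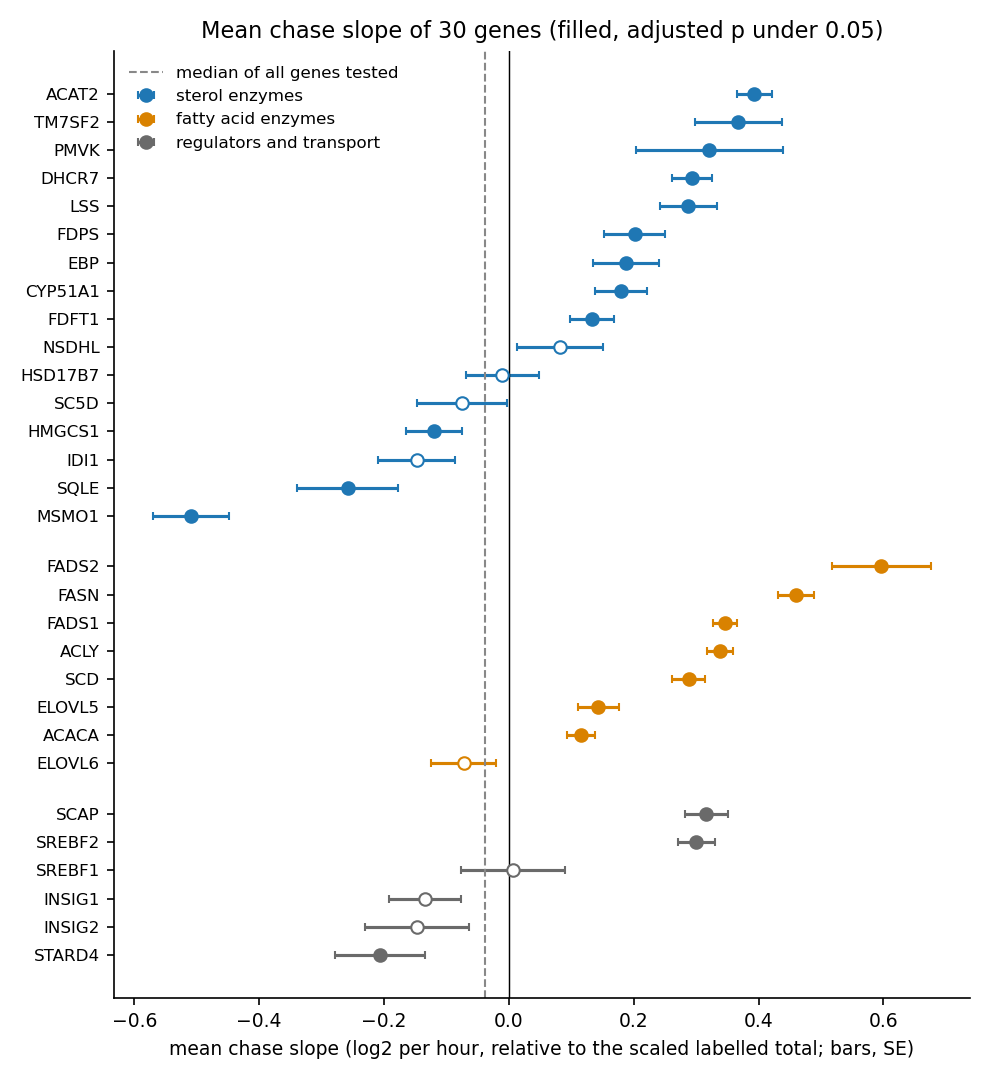
Mean chase slope of the 30 tested genes. The x axis gives log2 per hour relative to the scaled labelled total, points are slopes, bars are standard errors, and filled points have an adjusted p under 0.05. With this scaling 7 of 8 fatty acid enzymes lie right of 0, and with glycolytic mRNAs held constant 0 of the 30 pass there, as the all-gene median moves to -0.52.

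The sterol enzymes that fell were MSMO1, SQLE and HMGCS1. MSMO1 had 25.6, 27.2, 15.5 and 3.92 CPM at 0, 1, 3 and 6 h in the MIR211 line, against 43.9, 44.8, 17.8 and 5.02 CPM in A375 (slope -0.51, SE 0.060, adjusted p = 0.000168). It kept its 0 h level at 1 h and was lower at 3 and again at 6 h in both lines. SQLE had 34.8, 46.8, 46.9 and 12.5 CPM in the MIR211 line, against 88.9, 93, 92.9 and 29.3 CPM in A375 (slope -0.26, SE 0.081, adjusted p = 0.02). HMGCS1 had 50.3, 47.6, 54.5 and 26.2 CPM in the MIR211 line, against 96, 124, 101 and 71.1 CPM in A375 (slope -0.12, SE 0.045, adjusted p = 0.0406). IDI1 had 92.7, 100, 114 and 41.7 CPM in the MIR211 line, against 164, 207, 214 and 109 CPM in A375 (slope -0.15, SE 0.061, adjusted p = 0.0609). SQLE and IDI1 were at or above their 0 h level at 1 and 3 h in both lines and lowest at 6 h. The slope of MSMO1 passed with each of the 8 libraries left out in turn. That of SQLE did not pass without the 6 h library of the MIR211 line (slope -0.16) or of A375 (slope -0.18). That of HMGCS1 passed only without the 3 h library of the MIR211 line or the 0 h library of A375, and it lay between -0.15 and -0.053 over the 8. Without the filter on low counts neither SQLE nor HMGCS1 passed. SC5D had 8.16, 7.14, 13.6 and 5.64 CPM in the MIR211 line, against 10, 11.4, 10.6 and 6.83 CPM in A375 (slope -0.075, SE 0.072, adjusted p = 0.383).

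Another 9 sterol enzymes rose, from the first thiolase to the last reductase. ACAT2 had 63.6, 65.4, 127 and 258 CPM at 0, 1, 3 and 6 h in the MIR211 line, against 55.3, 77.6, 133 and 337 CPM in A375 (slope 0.39, SE 0.028, adjusted p = 1.24e-05). DHCR7 had 15.2, 16.7, 29.1 and 48.8 CPM in the MIR211 line, against 16.8, 22.4, 33 and 58.7 CPM in A375 (slope 0.29, SE 0.032, adjusted p = 0.000112). LSS had 3.81, 7.34, 8.45 and 16.9 CPM in the MIR211 line, against 7.65, 11.4, 14.3 and 26.1 CPM in A375 (slope 0.29, SE 0.045, adjusted p = 0.000705). The 6 h library was the highest of each line in all 3. FDPS had 40.8, 26.4, 36.5 and 77.9 CPM in the MIR211 line, against 45.6, 40, 44 and 104 CPM in A375 (slope 0.20, SE 0.049, adjusted p = 0.00655). FDFT1 had 47.6, 38.1, 63.1 and 88 CPM in the MIR211 line, against 73, 80.1, 87.7 and 106 CPM in A375 (slope 0.13, SE 0.035, adjusted p = 0.00895). CYP51A1 had 108, 137, 243 and 241 CPM in the MIR211 line, against 112, 165, 220 and 236 CPM in A375 (slope 0.18, SE 0.041, adjusted p = 0.00495). CYP51A1 reached its 6 h level at 3 h, whereas FDPS rose after 3 h. The low transcripts PMVK, TM7SF2 and EBP also passed. TM7SF2 had 2.45, 2.38, 2.41 and 8.09 CPM in the MIR211 line, against 2.36, 1.48, 4 and 10.4 CPM in A375 (slope 0.37, SE 0.070). EBP had 2.99, 4.36, 5 and 6.86 CPM in the MIR211 line, against 4.12, 3.17, 5.24 and 8.24 CPM in A375 (slope 0.19, SE 0.053). PMVK had 1.09, 2.38, 2.76 and 3.92 CPM in the MIR211 line, against 0, 1.9, 3.04 and 4.62 CPM in A375 (slope 0.32, SE 0.12, adjusted p = 0.0378). PMVK rested on 4 to 16 counts per library in the MIR211 line and 0 to 23 in A375, and it did not pass without 1 of 5 of the 8 libraries, nor did FDPS or EBP without the 6 h library of A375 (adjusted p = 0.0598 and 0.0762). NSDHL had 2.99, 2.18, 2.76 and 2.21 CPM in the MIR211 line, against 4.12, 5.5, 8.55 and 8.84 CPM in A375 (slope 0.082, SE 0.068, adjusted p = 0.313). HSD17B7 had 18.8, 7.73, 13.1 and 11.5 CPM in the MIR211 line, against 23.6, 24.3, 29.2 and 26.7 CPM in A375 (slope -0.011, SE 0.058, adjusted p = 0.883). Their slopes did not pass. MVK had 5 to 11 counts in the MIR211 line and 9 to 12 counts in A375, and MVD 0 to 4 counts and 0 to 10 counts.

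**Figure D3:**
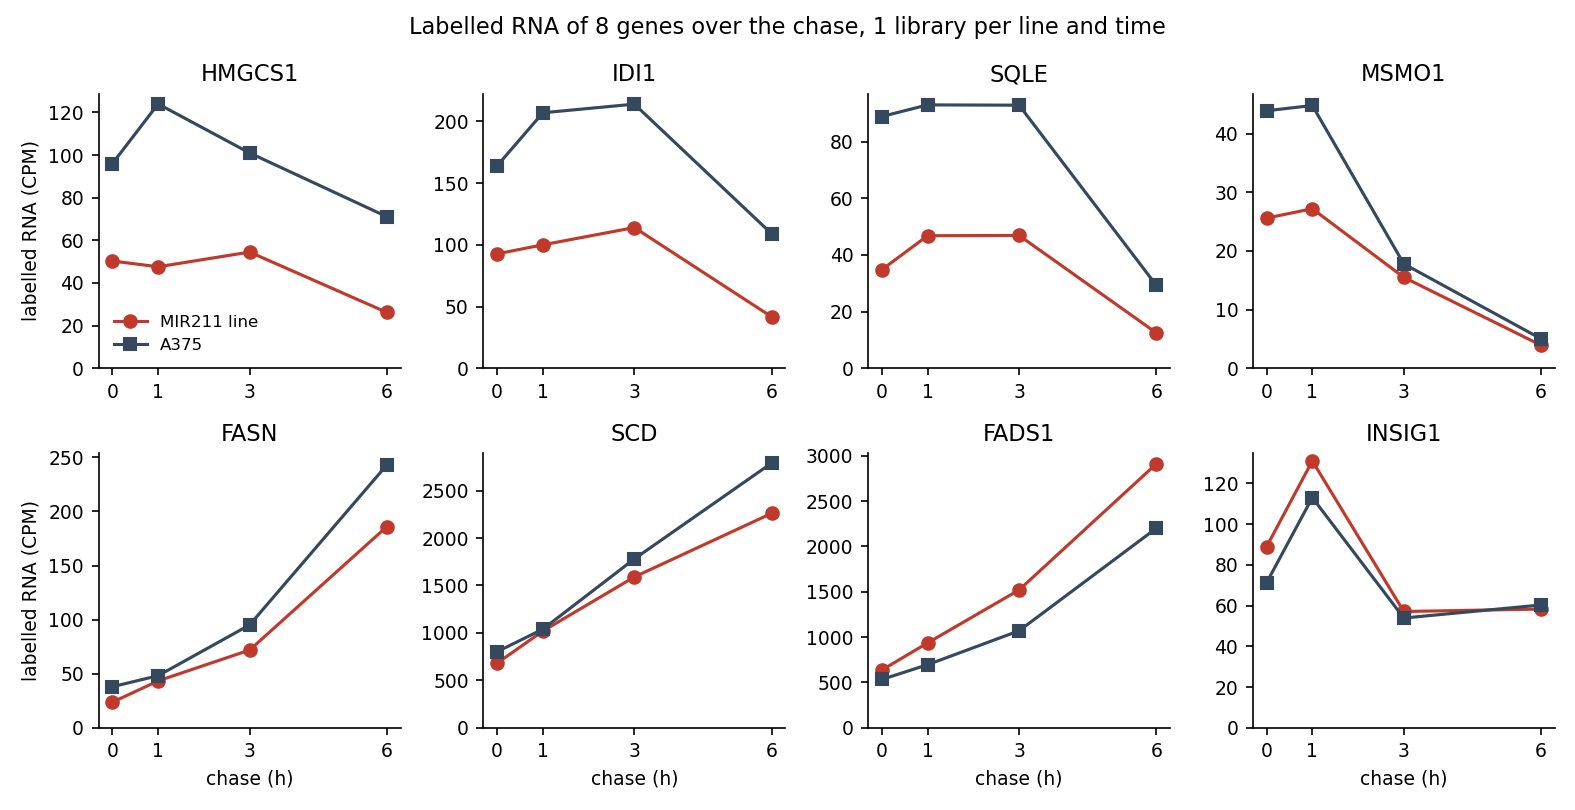
Labelled RNA of 8 genes over the chase. The x axis gives hours after labelling and the y axis CPM relative to the scaled labelled total, with 1 library per point, circles for the MIR211 line and squares for A375. HMGCS1, IDI1, SQLE and MSMO1 are lowest at 6 h in both lines, at 26.2, 41.7, 12.5 and 3.92 CPM in the MIR211 line and 71.1, 109, 29.3 and 5.02 CPM in A375, while FASN, SCD and FADS1 are highest there. With glycolytic mRNAs held constant, the slopes of FASN, SCD and FADS1 turn negative.

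Of the regulators, SREBF2, which encodes SREBP-2, the main driver of sterol genes, and SCAP rose. SREBF2 had 33.7, 37.5, 50 and 108 CPM at 0, 1, 3 and 6 h in the MIR211 line, against 41.8, 47.1, 82.9 and 150 CPM in A375 (slope 0.30, SE 0.029, adjusted p = 6.04e-05). SCAP had 10.6, 15.5, 21.5 and 43.9 CPM in the MIR211 line, against 13, 19.9, 27.9 and 51 CPM in A375 (slope 0.32, SE 0.034, adjusted p = 0.000108). Both were highest at 6 h in each line. STARD4 fell, with 225, 255, 266 and 96.5 CPM in the MIR211 line, against 212, 277, 77.4 and 116 CPM in A375 (slope -0.21, SE 0.072, adjusted p = 0.0322). In the MIR211 line STARD4 kept its level to 3 h, and in A375 it was already lower at 3 h. Its slope did not pass without any 1 of 5 libraries (both 1 h libraries, both 6 h libraries and the 0 h library of A375), where it lay between -0.26 and -0.14. INSIG1 had 88.9, 131, 57.1 and 58.3 CPM in the MIR211 line, against 71.2, 113, 53.9 and 60.3 CPM in A375 (slope -0.13, SE 0.058, adjusted p = 0.07). Its level peaked at 1 h and was lower at 3 and 6 h in both lines. SREBF1 had 20.1, 7.53, 23.6 and 24.7 CPM in the MIR211 line, against 23.6, 24.3, 12.4 and 16.1 CPM in A375 (slope 0.0074, SE 0.083), and INSIG2 had 3.81, 4.76, 3.79 and 2.94 CPM in the MIR211 line, against 2.06, 3.17, 2.76 and 0.804 CPM in A375 (slope -0.15, SE 0.083, adjusted p = 0.15). INSIG2 rested on 12 to 24 counts in the MIR211 line and 4 to 20 counts in A375.

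The timing of these changes was followed between neighbouring times, with the lines as a covariate, a comparison chosen after the time courses had been seen. Between 0 and 1 h, 0 of 30 genes passed with edgeR, beside 0% of all genes tested. With the same test 10 of the 30 had an unadjusted p under 0.05, beside 2238 of all 13703 genes. With DESeq2, 4 of the 30 passed (ACLY, SCD, FADS1 and INSIG1, all higher at 1 h), beside 306 higher and 245 lower among the 13703. Between 1 and 3 h, 8 of 30 rose and 2 fell, beside 12.9% and 16.1% of all genes. The pair that fell were INSIG1 (log2 difference -1.13, SE 0.14, adjusted p = 0.0048) and MSMO1 (-1.07, SE 0.21, adjusted p = 0.0148). Those that rose were FASN (0.85), ACAT2 (0.86), SCD (0.70), DHCR7 (0.68), FADS1 (0.66), SREBF2 (0.62), CYP51A1 (0.62) and ACLY (0.59). With a 1 h or 3 h library of either line left out, 0 to 2 of the 30 passed.

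Between 3 and 6 h, 13 of 30 rose and 4 fell, beside 19.7% and 17.8% of all genes. The 4 that fell were the sterol enzymes MSMO1 (log2 difference -1.91, SE 0.24, adjusted p = 0.00295), SQLE (-1.78, SE 0.17, adjusted p = 0.00146), IDI1 (-1.20, SE 0.16, adjusted p = 0.00328) and HMGCS1 (-0.77, SE 0.19, adjusted p = 0.0215). SC5D stood at -0.97 (SE 0.31) with an adjusted p of 0.0505. In this interval 6 of 8 fatty acid enzymes rose, led by FADS2 (1.89, SE 0.49), FASN (1.36, SE 0.15) and ACLY (1.07, SE 0.099), and 0 fell. Of the sterol enzymes 5 rose, among them TM7SF2 (1.52, SE 0.36), ACAT2 (1.19, SE 0.16) and FDPS (1.16, SE 0.16), as did SREBF2 (0.97) and SCAP (0.95). Under the glycolytic scaling 0 of the 30 rose, the all-gene median stood at -1.61, and the fatty acid median lay 0.82 above it and the sterol median 0.25 above it. That scaling moves all genes nearly alike, so these distances could hardly change and are no check on the rises and falls. Of the 17 genes, 9 passed with each of the 8 libraries left out in turn, among them MSMO1, SQLE and IDI1, and 10 passed without the 3 h library of the MIR211 line.

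No difference in slope between the lines passed the test. Fitted separately, the MIR211 line had 15 genes with a positive slope and 1 with a negative one, beside 21.9% and 21.0% of all genes, and A375 had 13 and 1, beside 23.0% and 24.2%. The negative one was MSMO1 in both, at -0.46 (SE 0.089, adjusted p = 0.00726) in the MIR211 line and -0.55 (SE 0.086, adjusted p = 0.00307) in A375. FASN had a slope of 0.47 (SE 0.043) in the MIR211 line and 0.45 (SE 0.042) in A375. FADS1 had 0.36 (SE 0.028) in the MIR211 line and 0.34 (SE 0.028) in A375. Without its own 6 h library, 0 of 14134 genes passed in the MIR211 line and 0 of 14100 in A375, so no slope of the 32 was called there. The median slope of the fatty acid enzymes was then 0.344 in the MIR211 line, against 0.303 with all libraries, and 0.334 in A375, against 0.319. The slope difference, MIR211 line minus A375, passed in 0 of 30 genes with edgeR, beside 0% of all genes, with 0 at an unadjusted p under 0.05 and 0 with DESeq2. It ran between -0.24 for FADS2 (SE 0.16) and 0.24 for SREBF1 (SE 0.15). For MSMO1 it was 0.094 (SE 0.12), for SQLE 0.0091 (SE 0.17) and for HMGCS1 -0.043 (SE 0.093), which leaves room for differences of the size of the slopes of SQLE and HMGCS1 themselves.

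At matched times, labelled RNA of sterol enzymes was lower in the MIR211 line. Of 16 tested sterol enzymes, 7 passed as lower and 0 as higher, beside 12.3% and 13.6% of all genes, 15 of 16 were below 0, and their median log2 difference was -0.45 (MIR211 line minus A375), beside -0.045 over all genes. Of the fatty acid enzymes 3 of 8 were lower and 2 higher (median -0.13), and of the regulators 1 of 6 was lower and 0 higher (median 0.051). The sterol median minus that of all genes was -0.40 under every scaling used, which is no check on the difference, because a scaling shifts all genes nearly alike. The 4 times serve as the replicates of this test, with 3 residual degrees of freedom. With 1 library per line and time, a difference between lines and one between cultures cannot be told apart, and the p-values do not measure the latter. In total RNA, libraries a and b of the MIR211 line differed from each other by a sterol median of 0.92. In bulk samples, fewer cells with a transcript and less of it per cell cannot be told apart.

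The 7 sterol enzymes that passed were SQLE, IDI1, HMGCS1, NSDHL, HSD17B7, LSS and FDFT1. SQLE had the smallest p (log2 difference -1.13, SE 0.11, adjusted p = 0.00141), and its CPM in the MIR211 line was at most 46.9, against 88.9 to 93 in A375 before 6 h. IDI1 differed by -1.03 (SE 0.11, adjusted p = 0.00177) and HMGCS1 by -1.16 (SE 0.13, adjusted p = 0.00221). In all 3 the MIR211 line was lower at 4 of 4 times. NSDHL differed by -1.40 (SE 0.29, adjusted p = 0.0173) and HSD17B7 by -1.08 (SE 0.23, adjusted p = 0.0178). NSDHL rested on 9 to 16 counts in the MIR211 line and 14 to 62 counts in A375. LSS differed by -0.73 (SE 0.16, adjusted p = 0.0187) and FDFT1 by -0.61 (SE 0.15, adjusted p = 0.0278). MSMO1 missed the threshold with -0.54 (SE 0.16, adjusted p = 0.0502), and FDPS had -0.36 (SE 0.12, adjusted p = 0.0649). Of the 16 sterol enzymes, 10 (62.5%) were lower in the MIR211 line at 4 of 4 times and 0 higher, where 25.3% of all genes tested were lower at each time. CYP51A1 differed by -0.037 (SE 0.091) and ACAT2 by -0.13 (SE 0.11), and DHCR7 by -0.25 (SE 0.12, adjusted p = 0.159). Those 3 did not pass, nor did PMVK, TM7SF2, EBP and SC5D.

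**Figure D4:**
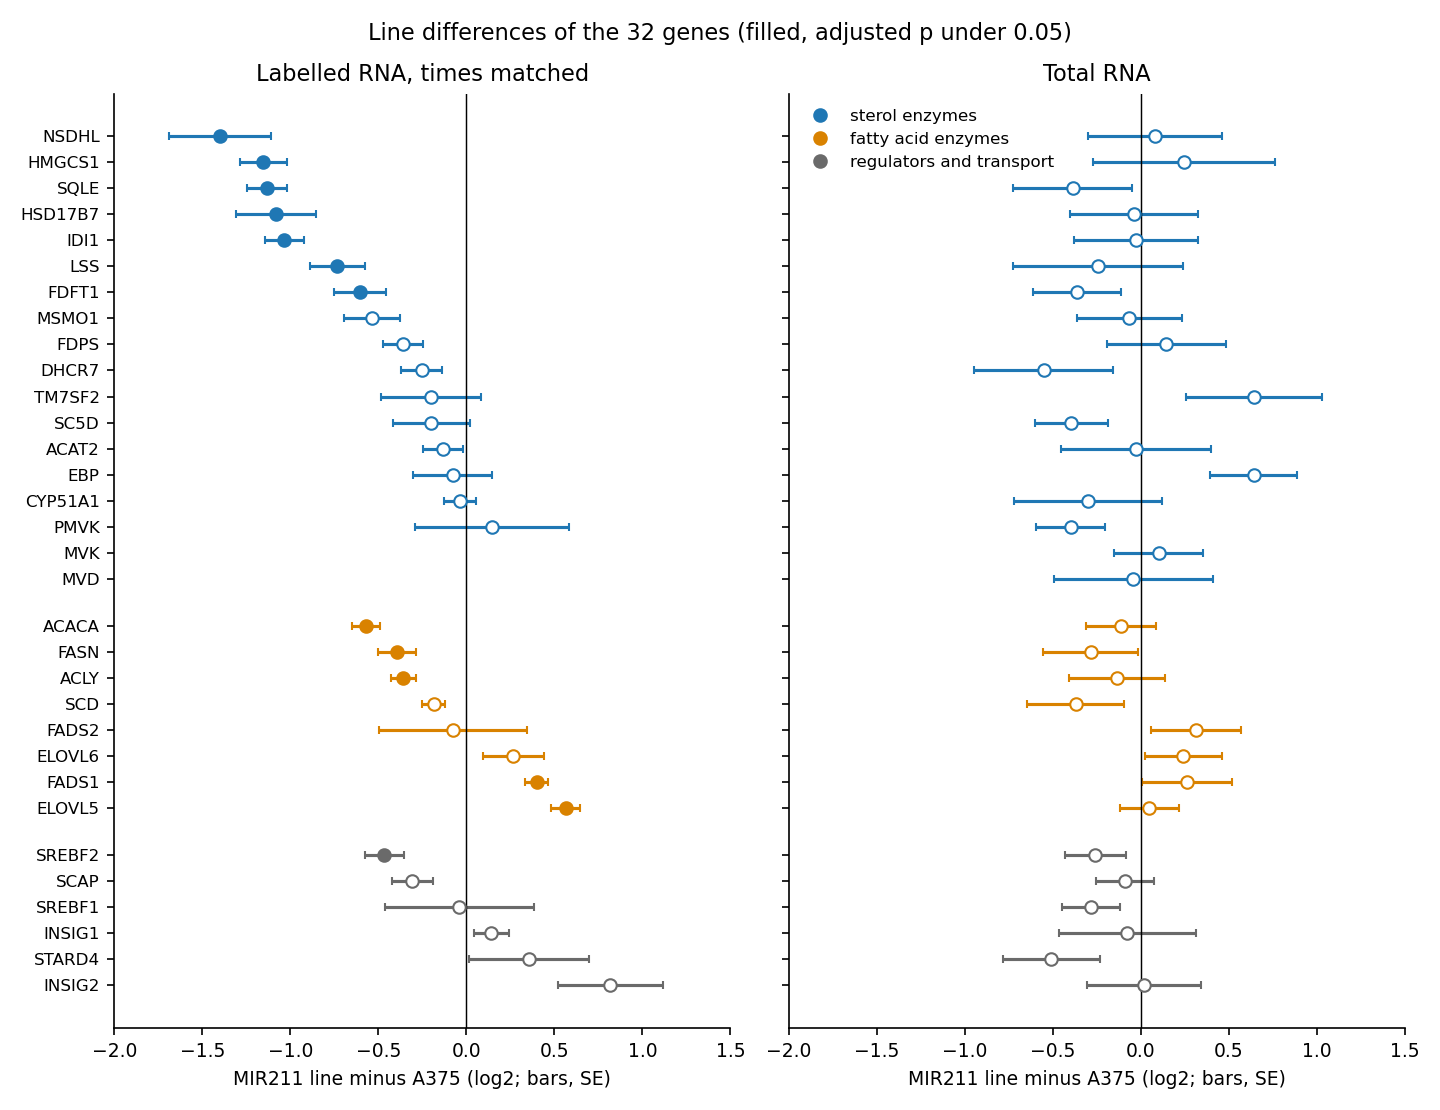
Line differences of the 32 genes. The left panel gives labelled RNA with times matched and the right panel total RNA, on x axes of MIR211 line minus A375 in log2, with standard errors as bars and filled points for an adjusted p under 0.05. In labelled RNA 7 sterol enzymes are filled left of 0, and in total RNA 0 of 32 points are filled. MVK and MVD were tested in total RNA only, and the 2 filled points right of 0 (ELOVL5 and FADS1) are no longer called with glycolytic mRNAs held constant.

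Of the fatty acid enzymes, ACACA, FASN and ACLY were lower in the MIR211 line, with ACACA at -0.57 (SE 0.079, adjusted p = 0.00417), FASN at -0.40 (SE 0.11, adjusted p = 0.0417) and ACLY at -0.36 (SE 0.070, adjusted p = 0.0138), each at 4 of 4 times. FASN did not pass with any 1 of the 8 libraries left out, where it lay between -0.48 and -0.31, and ACLY did not pass in 5 of these 8 fits. SCD stood at -0.19 (SE 0.067, adjusted p = 0.0878). ELOVL5 was higher by 0.56 (SE 0.083, adjusted p = 0.00526) and FADS1 by 0.40 (SE 0.065, adjusted p = 0.0074), each at 4 of 4 times. With glycolytic mRNAs held constant, which puts the all-gene median at -0.53, neither was called and FADS1 turned to -0.082. ELOVL6 differed by 0.27 (SE 0.18) and FADS2 by -0.076 (SE 0.42). Among the regulators SREBF2 was lower, at -0.47 (SE 0.11, adjusted p = 0.0264), and SCAP stood at -0.31 (SE 0.12, adjusted p = 0.1). INSIG2 stood at 0.82 (SE 0.30, adjusted p = 0.0924), INSIG1 at 0.14 (SE 0.099), STARD4 at 0.36 (SE 0.34) and SREBF1 at -0.040 (SE 0.42). Of the 13 calls, 6 (HMGCS1, IDI1, SQLE, ACACA, FADS1 and ELOVL5) passed with each of the 8 libraries left out in turn. The count was 6 when a 1 h or 3 h library of either line was left out, 7 without the 6 h library of the MIR211 line, 8 without that of A375 and 11 without either 0 h library.

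Marker sums of other cell types also differed between the lines in labelled RNA. The 5 fibroblast markers summed to 26.9 to 149 CPM in the MIR211 line, against 2.33 to 14.5 CPM in A375, mostly from LUM in the MIR211 line, while COL1A2 was at 0 there and reached 6.03 CPM in A375. The 3 endothelial markers summed to 27.5 to 46.7 CPM, against 1.06 to 4.12 CPM, mostly from KDR in the MIR211 line, with VWF at 0 in both lines, and the 4 leukocyte markers to 6.54 to 51.5 CPM, against 1.69 to 7.43 CPM, nearly all from LYZ. The leukocyte genes PTPRC and CD3E had 0 counts in all 12 libraries, and the adipocyte genes ADIPOQ and LEP and the hepatocyte genes ALB and APOA1 likewise. In total RNA the fibroblast sum was 25.8 to 26.9 CPM in the MIR211 line, against 26.1 to 61.3 CPM in A375, the endothelial sum 6.04 to 9.19 CPM against 3.58 to 4.18 CPM and the leukocyte sum 0.906 to 1.41 CPM against 1.36 to 2.95 CPM. Its fibroblast markers split. LUM had 12.3 and 11.9 CPM in the MIR211 line, against 4.28 and 5.53 CPM in A375, and PDGFRB 12.9 and 11.8 CPM against 4.42 and 4.66 CPM. DCN was also higher there, at 1.27 and 1.29 CPM against 0.147 and 0 CPM. COL1A2 was lower, at 0.236 and 0.518 CPM against 17.2 and 51 CPM, and COL1A1 was near 0 in both lines. KRT5 was at 0 throughout, and KRT14 reached 0.55 CPM in total RNA of the MIR211 line. The part of other cells in the sterol difference was not tested.

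Labelled RNA was compared with total RNA at 0 h, as log2 of labelled CPM over the line's mean total CPM, with 0.5 CPM added to each. The tables were scaled separately, so only the order of genes is given. The median over 12677 genes was -0.373 in the MIR211 line and -0.378 in A375. In the MIR211 line STARD4 stood highest at 1.10, followed by FADS1 at 0.802 and ACACA at 0.316. In A375 FADS1 stood highest at 0.807, followed by ACACA at 0.798 and STARD4 at 0.504. FASN, whose total RNA is abundant, stood at -4.37 in the MIR211 line and -3.98 in A375, and EBP at -4.25 in the MIR211 line and -3.21 in A375. Among the sterol enzymes that fell in the chase, HMGCS1 stood at -2.73 in the MIR211 line and -1.56 in A375, SQLE at -2.40 and -1.44, and MSMO1 at -2.43 and -1.73. These ratios rest on 1 labelled library per line and on mean total levels that, in the MIR211 line, differed widely between libraries a and b for HMGCS1 (504 and 170 CPM), so no difference between the lines is read from them.

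The U content of the transcript, which bears on how much BrU a molecule can hold, varied with the slope. U content of the annotated canonical transcript (GENCODE 44) ran between 17.5% for FASN and 34.9% for STARD4 over the 30 tested genes. The 4 genes with a negative slope lay between 27.7% and 34.9%, and the 18 with a positive slope between 17.5% and 31.6%, with medians of 32.85% and 23.4%. Across the 30 genes the slope and U content had a Pearson r of -0.757 and a Spearman rho of -0.753, and across 12573 genes they had -0.239 and -0.237. The ratio of labelled to total RNA had a rho with U content of 0.551 in the MIR211 line and 0.607 in A375 over the 30 genes, beside 0.406 and 0.348 over all genes. These are descriptions across genes, which share the same libraries and their base composition and are not replicates, and the part of U content in the slopes was not tested.

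**Figure D5:**
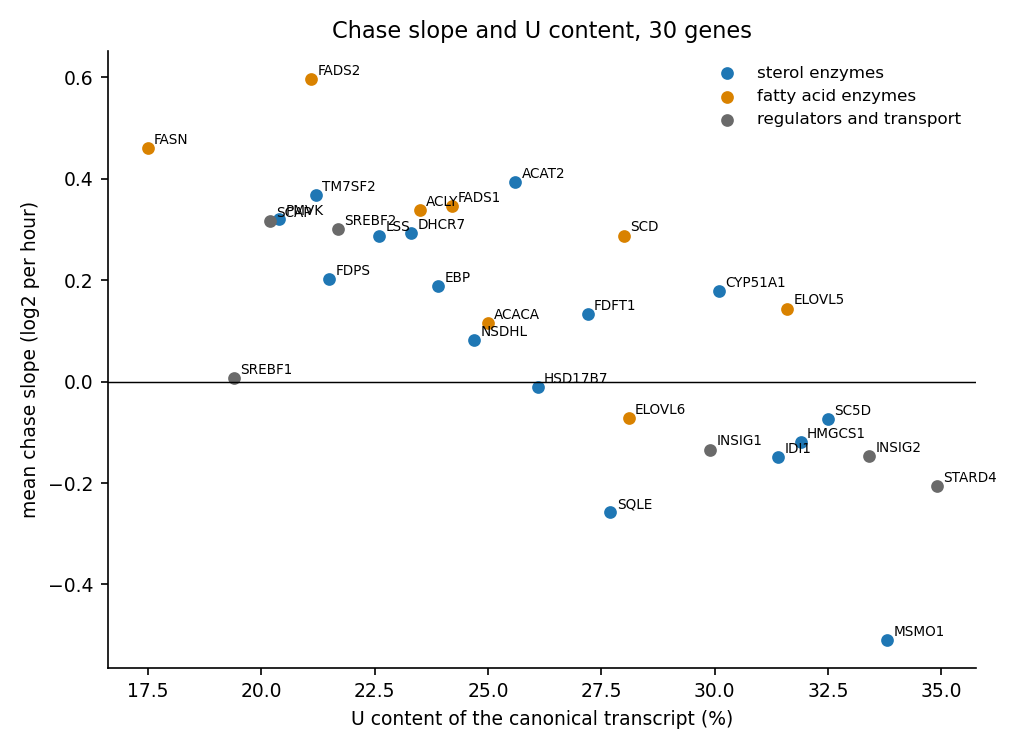
Mean chase slope against U content. The x axis gives the percentage of U in the canonical transcript and the y axis the slope in log2 per hour, with 1 point per gene and colours for the 3 groups. MSMO1, STARD4 and HMGCS1 lie at the U-rich end with negative slopes, and FASN and FADS2 at the U-poor end with positive ones under this scaling. Others depart from this order: ELOVL5 (31.6%) and CYP51A1 (30.1%) have slopes of 0.144 and 0.179, and SREBF1 (19.4%) one of 0.0074. With glycolytic mRNAs held constant, FASN turns to -0.022 and 0 of the 30 slopes pass above 0.

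Words of the 3′ UTR of the canonical transcript were counted for the AU-rich element core UAUUUAU, the Pumilio site UGUANAUA (N, any base) and the match to the miR-211 seed, on the transcript strand only. UAUUUAU was present in 12 of 30 genes, against 40.3% of 10784 genes, and UGUANAUA in 10 of 30, against 33.8%. UAUUUAU was present in 2 of the 4 genes with a negative slope (HMGCS1 and STARD4) and in 6 of the 18 with a positive one. It was also in 4 of the 8 whose slope did not pass. UGUANAUA was present in 2 of the 4 (SQLE and STARD4), in 2 of the 18 and in 6 of the 8, so it was not particular to genes that fell. Sites in HMGCS1 and STARD4 are shown since both fell in the chase, and the one in FASN since it rose with the same word. Capitals mark the word, with 10 bases to each side, from the reference genome (hg38).
HMGCS1 site: uugcuauaaaUAUUUAUgaaaugaguu
STARD4 site, the first of 4: cuuuuguuuuUAUUUAUuuuuugccac
STARD4 site, the second of 4: uccuauagcaUAUUUAUuaauuugucu
FASN site: uggauuugcaUAUUUAUugcauugcug
MSMO1, with the steepest fall, held none of the 3 words. UTRs that hold UAUUUAU are longer, with a median of 2738 bases against 970 without it, and the all-gene median slope was -0.108 with it and 0.0471 without it.

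The mature product of the overexpressed gene, hsa-miR-211-5p (RefSeq, GRCh38.p14, chr15:31065095-31065116, minus strand), is shown with its seed, bases 2 to 8, in capitals.
hsa-miR-211-5p: uUCCCUUUgucauccuucgccu
Its match, AAAGGGA, was present in the 3′ UTR of 5 of 30 genes, against 21.2% of 10784. It occurred 3 times in ELOVL6 and once each in ACACA, SCD, FADS1 and ELOVL5, and in none of the 16 tested sterol enzymes. The 3′ UTRs of those 16 ran from 56 bases in FDPS to 5898 bases in SC5D, and a short one has less room for a match. The sites of ELOVL5 and ACACA, whose labelled RNA differed in opposite directions between the lines, and the first of ELOVL6 were as follows, with the match in capitals.
ELOVL5 site: uagacuguggAAAGGGAguauuauuau
ACACA site: cucugaggacAAAGGGAaagguaguug
ELOVL6 site, the first of 3: gugagcuggaAAAGGGAgaaaggcagu
Of the 5 genes, ACACA was lower in labelled RNA of the MIR211 line, ELOVL5 and FADS1 were higher, and SCD and ELOVL6 did not pass. None of the 5 passed in total RNA or in the slope difference. Over all genes, the median line difference in labelled RNA was -0.0189 with the match and -0.0701 without it. The median 3′ UTR was 3187 bases with the match and 1220 without it, so the match and UTR length cannot be told apart here. Mature miR-211 was not measured, and a match is not a measured site.

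Other genes of these pathways were read from 5 further lists. In total RNA 0 of the 7 tested genes of other sterol synthesis, 10 of SREBP processing and sterol sensing, 7 of uptake and trafficking, 6 of LXR and efflux and 25 of other fatty acid genes passed. Over all genes tested in labelled RNA, 29.9% rose and 34.4% fell in the chase, and 13.6% were higher and 12.3% lower in the MIR211 line at matched times, and many list counts are near these shares. Of the 8 tested genes of other sterol synthesis, 3 rose and 3 fell in the chase, and 0 were higher and 2 lower in labelled RNA of the MIR211 line at matched times. LBR, a sterol reductase and lamin receptor, was lower (-0.79, SE 0.12, adjusted p = 0.00582). ACAT1, the mitochondrial thiolase, was lower (-0.67, SE 0.16, adjusted p = 0.0266), with a positive slope of 0.41 (SE 0.046, adjusted p = 0.000131).

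Of 10 genes of SREBP processing and sterol sensing, 3 rose and 5 fell in the chase, and 1 was higher and 0 lower in the MIR211 line. The site-2 protease MBTPS2 was the higher one (0.48, SE 0.11, adjusted p = 0.0234). NFYA, the NF-Y subunit that binds the CCAAT box, fell with a slope of -0.39 (SE 0.042, adjusted p = 9.18e-05), and RNF139, an endoplasmic reticulum ubiquitin ligase, with -0.70 (SE 0.088). Of 6 tested genes of uptake and trafficking, 2 rose and 1 fell in the chase, and 3 were higher and 1 lower in the MIR211 line. SCARB1 (slope 0.38, SE 0.033) and NPC2 (0.56, SE 0.081) rose, and OSBP, an oxysterol-binding protein, fell (-0.32, SE 0.067, adjusted p = 0.00311). NPC1, the lysosomal cholesterol exporter, was higher by 1.55 (SE 0.11, adjusted p = 0.000393). NPC2, which hands cholesterol to NPC1, was higher by 1.25 (SE 0.34, adjusted p = 0.0416) and the lipoprotein receptor SCARB1 by 0.69 (SE 0.13, adjusted p = 0.0132). TMEM97 was lower by -0.58 (SE 0.12, adjusted p = 0.0174). In total RNA the libraries of the lines overlapped for each of these genes. There NPC1 had 181 and 66.7 CPM in the MIR211 line, against 140 and 95.3 CPM in A375. NPC2 had 79 and 54.4 CPM against 71.4 and 64.8 CPM, SCARB1 169 and 128 CPM against 133 and 177 CPM, and TMEM97 27.6 and 40.1 CPM against 22.6 and 70.6 CPM.

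Of 5 tested genes of LXR and efflux, 2 rose and 0 fell in the chase, and 1 was higher and 2 lower in the MIR211 line. ABCA1, the cholesterol exporter, was lower by -2.05 (SE 0.15, adjusted p = 0.000506) in labelled RNA, beside -0.53 (SE 0.37, adjusted p = 0.723) in total RNA. SOAT1, which esterifies cholesterol, was higher by 0.60 (SE 0.12, adjusted p = 0.0132) in labelled RNA, beside -0.46 (SE 0.21, adjusted p = 0.541) in total RNA. Of 21 other fatty acid genes, 9 rose and 4 fell in the chase, and 5 were higher and 3 lower in the MIR211 line. The acyl-CoA synthetases ACSL1 (1.42, SE 0.11, adjusted p = 0.000549) and ACSL3 (0.77, SE 0.095, adjusted p = 0.00285) and the malic enzyme ME1 (0.70, SE 0.087, adjusted p = 0.0029) were higher, and the elongase ELOVL2 was lower (-1.88, SE 0.26, adjusted p = 0.0042). HSD17B12, the ketoacyl reductase of elongation, had a slope of 0.34 (SE 0.020, adjusted p = 5.9e-06), and ME1 one of 0.40 (SE 0.026, adjusted p = 9.26e-06). In total RNA the line differences of ACSL1 (-0.46, SE 0.24) and ME1 (-0.35, SE 0.18) had the opposite sign and did not pass.

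Some counts may hold reads of other genes. No source used here gives the counting strand or the handling of reads with several matches. In GENCODE 44, 21 of the 32 genes overlap another gene and 8 a coding gene, among them ACAT2 with TCP1, CYP51A1 with AKAP9, TM7SF2 with VPS51, and FADS1 with FADS2. Named pseudogenes exist for 5 (IDI1, FDPS, CYP51A1, HSD17B7 and SCD), with 8 for FDPS. The values of these genes are uncertain by what such reads contribute.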

How the data were processed

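Read counts for 60675 Ensembl identifiers were deposited by the authors, in 1 table for RNA-seq and 1 for BRIC-seq. Per the submitters' processing notes, HISAT2 2.1.0 and StringTie were used. Those notes name build hg19 and the series' design text hg38, so no coordinate here rests on the counts. The design text names DESeq2 for the authors' own testing, and the library kit was a stranded one for total RNA, per the labels' protocols. A row without a gene held 0.000108 to 0.00122% of the BRIC-seq counts and was left out.

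Symbols came from GENCODE 44. Counts were tested in edgeR 4.0.16 (R 4.3.3, limma 3.58.1) with TMM factors and the quasi-likelihood F test, after filterByExpr on the lines (count of at least 10, total of at least 15), and Benjamini-Hochberg adjustment over all genes of a table, at an adjusted p of 0.05. CPM uses the TMM-scaled library size. The 2 tables were normalized separately. RNA-seq compared lines with 2 residual degrees of freedom. BRIC-seq gave a mean slope per hour with line as a covariate (5), a slope per line and their difference (4), and a line difference with time as a factor (3). Neighbouring times were added after the data were seen. An SE was taken as the size of the log2 value over the root of its F statistic. Each fit was tested on simulated data with 200 changed genes, of which 86.5% were recovered for RNA-seq at a log2 size of 2 and 19% for the slope difference at 0.4 per hour. DESeq2 1.42.0 and other scalings and filters served as alternatives. Sequences, drawings and joins used Python 3.11.15.

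The 32 genes, the other lists and the tests were chosen with earlier results of these data known. All 32 were named, with values in every library for those passing a comparison or among the 8 smallest p of one, and from other lists up to 4 genes with the smallest p per comparison. Some genes of the other lists are not reported here. Depth was 20847481 to 34130525 counts in RNA-seq and 2671651 to 7279038 counts in BRIC-seq, and values of few counts are imprecise.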

Additional observations from a re-analysis of the deposited data

How the results depend on the processing

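In total RNA, 0 of the 32 genes passed under every alternative run, and the count over all genes, 73, was 237 without a filter, 748 with DESeq2 and 0 to 15 with 1 library left out. The sterol minus fatty acid median, -0.0087, lay between -0.408 and 0.198 with 1 library left out and was reversed, at 0.198, without library b of the MIR211 line; the cause was not tested. Across the genes tested, the deviation of library a from its line's mean had a correlation of 0.31 between the lines. That value does not settle whether the letters a and b pair the libraries. With the letter as a replicate block, 192 genes and 0 of the 32 passed, and the sterol minus fatty acid median was -0.0958.

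In the chase, the mean slope of 22 genes passed, and 16 to 23 did with 1 library left out. The sterol minus fatty acid median of the slopes lay between -0.202 and -0.153 then, and was -0.227 among genes of at least 5 CPM. Per line, genes passing lay between 0 and 6770 in A375 and between 0 and 5870 in the MIR211 line with 1 library left out, and of the 30 genes between 0 and 16 in each. With total counts 10 of the 30 passed in the MIR211 line. Under the glycolytic scaling 10849 genes passed in A375 and 10945 in the MIR211 line. The slope difference gave 0 genes, 1 without a filter and 14 with DESeq2. For matched times, genes passing lay between 1739 and 2863, those of the 30 between 6 and 11, and the sterol minus fatty acid median between -0.529 and -0.144 with 1 library left out, and 6799 genes passed with glycolytic mRNAs held constant.

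Between neighbouring times, 0 genes passed for 1 h minus 0 h, with 22 under total counts, 26 at a mean of at least 5 CPM and 551 with DESeq2, of which 4 were of the 30. For 3 h minus 1 h, with 1 library left out, 433 to 4086 genes and 0 to 11 of the 30 passed. With total counts 5 of the 30 passed. Under the glycolytic scaling 16 of the 30 and 8267 genes passed, and without a filter 2346 genes. For 6 h minus 3 h, 2171 to 5047 genes and 10 to 17 of the 30 passed with 1 library left out, and 10062 genes with glycolytic mRNAs held constant.

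Total counts as library sizes reversed the mean slope of FDFT1 (-0.034), ACACA (-0.052) and ELOVL5 (-0.023), and 6 h minus 3 h for CYP51A1 (-0.57), ACACA (-0.17), SCD (-0.040) and ELOVL5 (-0.46). With glycolytic mRNAs held constant the mean slope was reversed in ACAT2 (-0.088), PMVK (-0.17), FDPS (-0.28), FDFT1 (-0.35), LSS (-0.20), CYP51A1 (-0.30), TM7SF2 (-0.11), NSDHL (-0.40), EBP (-0.29), DHCR7 (-0.19), ACLY (-0.14), ACACA (-0.36), FASN (-0.022), SCD (-0.19), FADS1 (-0.14), ELOVL5 (-0.34), SREBF1 (-0.47), SREBF2 (-0.18) and SCAP (-0.17). It reversed 6 h minus 3 h in ACAT2 (-0.39), FDPS (-0.41), FDFT1 (-1.19), LSS (-0.64), CYP51A1 (-1.53), TM7SF2 (-0.045), EBP (-1.01), DHCR7 (-0.79), ACLY (-0.50), ACACA (-1.12), FASN (-0.21), SCD (-0.99), FADS1 (-0.59), ELOVL5 (-1.41), SREBF2 (-0.60), SCAP (-0.62) and INSIG1 (-1.47), and the matched-time line difference in FADS1 (-0.082) and INSIG1 (-0.34). These scalings shift all genes nearly alike, and the all-gene medians moved with them. With 1 library per line and time, MVK and MVD had too few labelled counts to be tested.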
